A study of Mus musculus with 346 samples.

Results

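The genes described here are 10 of the 27179 genes in the count tables: the transition factors Snai1, Snai2, Zeb1, Zeb2, Twist1 and Twist2 and the mesenchymal effectors Vim, Cdh2, Fn1 and Sparc. They were listed by name and found through their Entrez numbers, with no threshold on a measured value, and all 10 were present in every table. The cells were 346 single cells from mammary glands of female FVB/NJ mice, an inbred laboratory strain with no transgene, sorted as total epithelium after removal of cells with CD31, CD45 or TER119 (endothelial, leukocyte and erythroid surface proteins). They comprised 144 cells from pre-pubertal mice aged 2 weeks, 136 from pubertal mice aged 4.7 to 4.9 weeks and 66 from adults aged 10 weeks. Glands of several mice were pooled for each sort and the labels name no mouse, so each stage counted as 1 sample and no test was made between stages. Single cells were captured and their RNA amplified in separate chambers of Fluidigm C1 microfluidic chips.

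In an epithelial to mesenchymal transition, epithelial cells loosen their junctions and take on the shape and motility of mesenchymal cells. The Snail (Snai), Zeb and Twist families are DNA-binding proteins that repress E-cadherin (Cdh1) and other junction genes, and vimentin, N-cadherin and fibronectin are the classical proteins gained. In the mammary gland Snai2, the gene of Slug, is known for its expression in basal cells, and vimentin is found in basal cells and in stroma. The same genes are used by fibroblasts, endothelial cells and neural crest derivatives such as Schwann cells.

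The study's coverage filter of at least 100000 reads and 1500 genes kept 116 pre-pubertal, 119 pubertal and 44 adult cells, with 109392 to 1189284 reads per cell and medians of 296633, 574944 and 334730. The epithelial label did not hold for the markers of the pre-pubertal cells. After every cell was thinned to 100000 reads, the median pre-pubertal cell had 16 of 24 Schwann cell markers, 0 of 12 luminal markers, 2 of 12 basal markers and 7 of 16 fibroblast markers, and Epcam, the epithelial adhesion gene, was found in 14.7% of these cells. The median pubertal cell had 2, 7, 2 and 1 markers of these lists, and the median adult cell 2.5, 6, 7 and 2. At least 12 Schwann markers were present in 108 of 116 pre-pubertal cells and in 0 pubertal or adult cells. The summed level of the Schwann list ranged from 663 to 87866 CPM (counts per 1000000 reads) per cell at pre-puberty, from 0 to 135989 at puberty and from 0 to 5457 in the adult. Every stage difference below runs alongside this change in markers, and stage and cell type cannot be told apart in these data. In addition, 16 pubertal and 4 adult cells had at least 8 of 16 fibroblast, 5 of 10 endothelial or 4 of 7 pericyte markers, and are called cells with non-epithelial markers. By the same limits 30 pre-pubertal cells were marked, 26 of them by the fibroblast list, whose limit of 8 lay next to the stage median of 7. The Schwann list was not part of these limits. Removing the marked cells therefore left 86 pre-pubertal cells that were not selected to be epithelial. No cell reached 5 of 10 immune markers. The marked pubertal and adult cells were not free of epithelial transcripts. Of the 8 genes Krt5, Krt14, Krt17, Krt8, Krt18, Krt19, Epcam and Cdh1 they had 2 to 8 at puberty and 1 to 7 in the adult. Whether some held 2 cells was not tested.

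The 10 genes fell into a few that were abundant in pre-pubertal cells and several that were nearly silent throughout. In every kept pre-pubertal cell both Vim and Sparc were detected, and Zeb2 was detected in all but 2, whereas Twist1 and Twist2 had no read at this stage. In level per length, as RPKM (reads per 1000 bases of gene per 1000000 reads), the pre-pubertal order was Sparc at 2840, Vim at 1500, Zeb2 at 111, Fn1 at 34.1, Snai2 at 22.0, Cdh2 at 9.71 and Zeb1 at 8.60. Sparc and Vim were also the highest in pubertal cells (256 and 117 RPKM) and adult cells (379 and 218 RPKM), and the next in pubertal cells were Fn1 at 42.1, Snai2 at 32.7 and Zeb2 at 6.10 RPKM. The pubertal levels of Twist2 (0.923 RPKM) and Snai1 (0.900 RPKM) had overlapping counting intervals. In thinned cells the median number of the 10 genes present was 4 at pre-puberty and 1 at either later stage, and 55 of 119 pubertal cells had none of them.

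**Figure D1:**
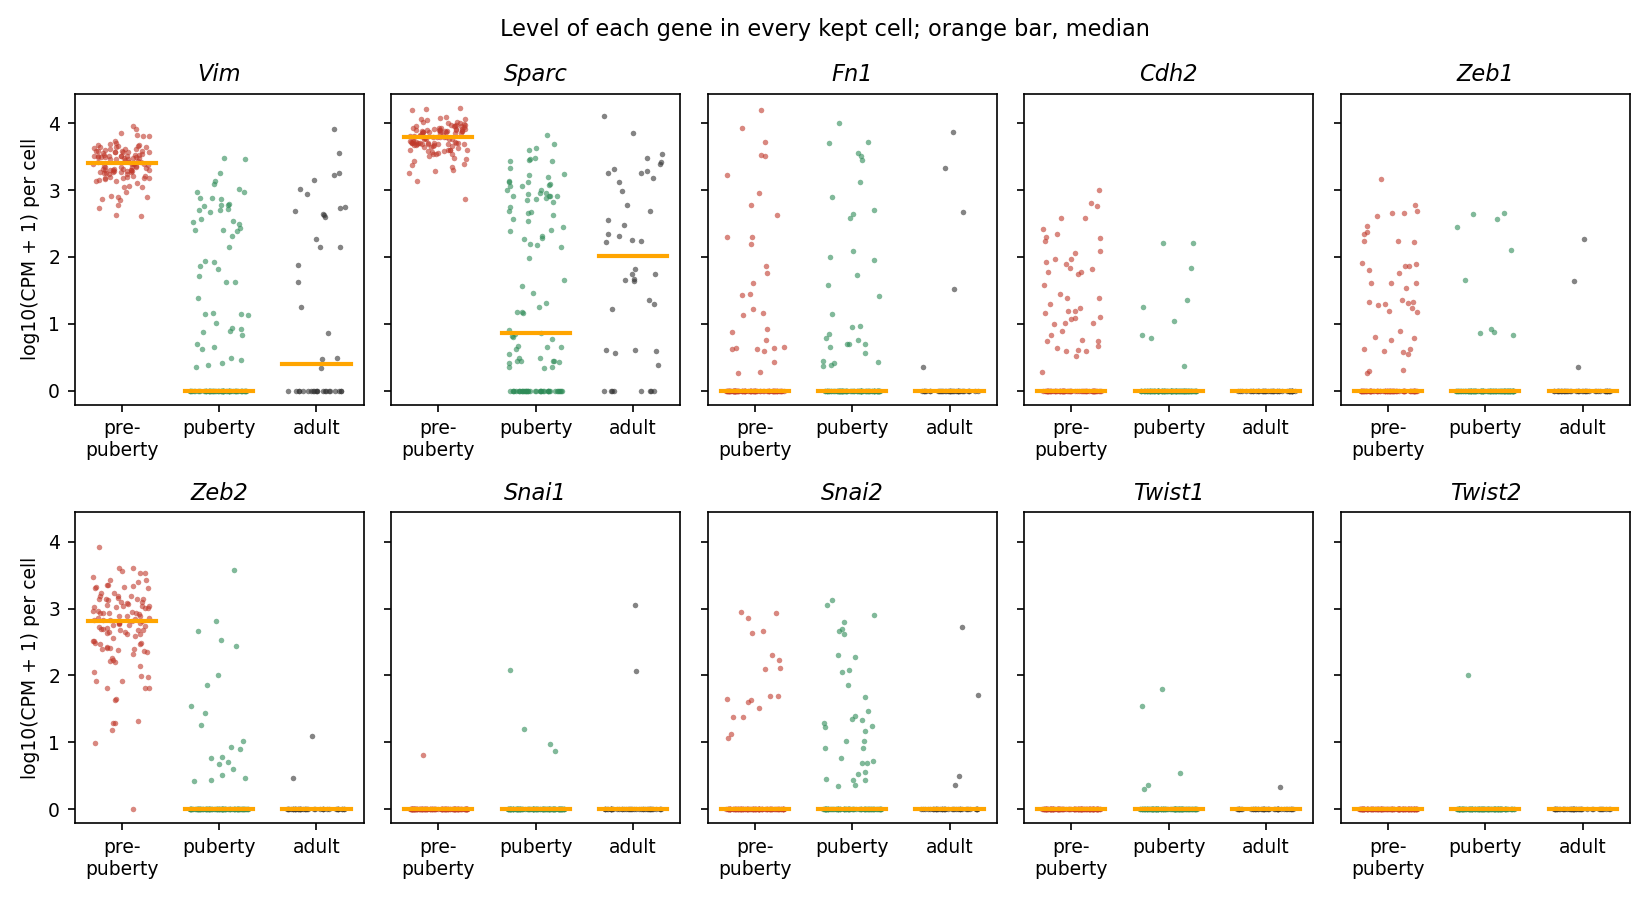
Level of each gene in every kept cell, as log10 of CPM plus 1, for 116 pre-pubertal, 119 pubertal and 44 adult cells. Each point is a cell and the orange bar is the median. Vim, Sparc and Zeb2 form a raised cloud at pre-puberty, with medians of 2540, 6233 and 653 CPM, while most other panels hold a few high cells above a line of cells at 0.

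Of the 7 members that reached 10 CPM at either stage, 5 exceeded their pubertal level more than 2-fold at pre-puberty, and 0 were lower by that much. Among all 9870 genes at 10 CPM or more, 21.4% were that much higher and 24.0% that much lower. Here 2-fold means a log2 ratio past 1 after 5 CPM was added to both levels, which understates the change of low genes. Against the adult, 6 of 8 were higher at pre-puberty (background 31.7%) and 1 was lower (28.9%). From puberty to adult, 4 of 7 were higher at puberty (28.4%) and 1 was lower (20.6%). The median log2 ratio of the members that reached 10 CPM was 2.83 for pre-puberty over puberty, against -0.12 for all genes so filtered. The comparisons share their samples in pairs. The list was chosen with earlier results of these data known, and the paper had already reported Vim, Sparc and Zeb2 as high at pre-puberty. These counts therefore describe the members beside the background and test nothing.

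Vim (chr2:13574311-13582826, GRCm38.p6), which encodes the intermediate filament of mesenchymal cells, was high in every pre-pubertal cell. The summed pre-pubertal cells had 2752 CPM (95% Poisson interval 2736 to 2768), with 414 CPM in the lowest cell, 2540 in the median and 9165 in the highest. At puberty the level was 214 CPM (210 to 217), and the lowest, median and highest cell had 0, 0 and 3053 CPM. In the adult it was 400 CPM (391 to 409), with 0, 1.56 and 8117 CPM. Pre-pubertal cells were thus uniformly high, but the ranges overlapped, since 19 of 119 pubertal and 12 of 44 adult cells lay above the lowest pre-pubertal cell. The log2 ratio was 3.66 over puberty and 2.77 over the adult. A single adult cell held 40.0% of the adult Vim reads, and the adult level was 245 CPM without it. Without the cells with non-epithelial markers Vim was at 2844, 74.1 and 323 CPM, and the log2 ratio of puberty over adult went from -0.89 to -2.05. The adult cell with 40.0% of the reads was not among those removed and still weighs on that ratio. Leaving out both it and the marked cells was not tried. After thinning, 100% of pre-pubertal cells had Vim (95% exact binomial interval 96.9 to 100). Among pubertal cells the share was 41.2% (32.2 to 50.6) and among adult cells 45.5% (30.4 to 61.2), so these later shares overlapped.

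Sparc (chr11:55394159-55420080), encoding a secreted protein that binds collagen, followed the same stage order as Vim but was more widespread. It had 6528 CPM at pre-puberty (6503 to 6553), with 743, 6233 and 17209 CPM in the lowest, median and highest cell. The pubertal level was 589 CPM (583 to 595), with 0, 6.27 and 6595 CPM in the corresponding cells, and the adult level was 872 CPM (859 to 886), with 0, 115 and 12992 CPM. As for Vim, most later cells lay below the lowest pre-pubertal cell, and 30 pubertal and 13 adult cells lay above it. The log2 ratio was 3.46 over puberty and 2.90 over the adult. Every pre-pubertal cell had Sparc, and the adult share of 77.3% (62.2 to 88.5) lay above the pubertal share of 50.4% (41.1 to 59.7) by intervals that did not overlap. Unthinned, those shares were 67.2% (58.0 to 75.6) and 81.8% (67.3 to 91.8) and the intervals did overlap. The median adult cell also had 7 basal markers against 2 at puberty, and the shares are not adjusted for that difference. Over the 116 pre-pubertal cells the Spearman correlation of Vim and Sparc CPM was 0.35, given as a description of cells that share a stage and chips.

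The promoters of Vim and Sparc are shown because these genes were the members most often found in the same cells. Each sequence has 250 bases, of which the last 25 lie after the RefSeq start (GRCm38.p6), read 5′ to 3′ on the gene's own strand: Vim from chr2:13574086-13574335 on the plus strand and Sparc from chr11:55420056-55420305 on the minus strand. Capitals mark the letters TATAAA of the core promoter box in Vim. In Sparc they mark CAGGTG, the E-box bound by Snail and Zeb proteins.
Vim: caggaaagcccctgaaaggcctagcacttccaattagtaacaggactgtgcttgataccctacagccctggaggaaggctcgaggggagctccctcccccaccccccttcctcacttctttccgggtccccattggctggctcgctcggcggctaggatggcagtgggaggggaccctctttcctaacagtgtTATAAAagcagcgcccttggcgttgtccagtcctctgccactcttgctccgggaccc
Sparc: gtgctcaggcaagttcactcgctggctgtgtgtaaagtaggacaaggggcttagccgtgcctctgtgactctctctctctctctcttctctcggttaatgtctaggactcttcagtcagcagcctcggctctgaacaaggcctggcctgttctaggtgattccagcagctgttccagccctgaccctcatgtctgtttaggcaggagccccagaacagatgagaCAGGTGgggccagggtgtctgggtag

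The TATAAA letters of Vim began 32 bases before the start, and its window held no CAGGTG. Sparc had CAGGTG from the last base before the start and no TATAAA. Over the 6 members with promoter windows in the RefSeq table, CAGGTG was also found in Snai1, 126 bases before the start, and TATAAA in Twist1, and neither was found in the windows of Zeb2 and Twist2. On either strand, CAGGTG (reverse CACCTG) was in 20.2% and TATAAA (reverse TTTATA) in 13.6% of 32851 promoter windows of 250 bases before to 50 after a start. The motifs do not overlap, and a match describes letters only.

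Among the factors Zeb2 (chr2:44983512-45117442), a zinc finger repressor of junction genes, was the only one at a high level in most cells of any stage. At pre-puberty it had 1010 CPM (1001 to 1020), with 0, 653 and 8399 CPM in the lowest, median and highest cell, and was detected in 98.3% of thinned cells (93.9 to 99.8). The pubertal level was 55.6 CPM, but 1 cell with 12 of 16 fibroblast markers held 80.8% of those reads, and without it the level was 10.8 CPM. In the adult 5 reads gave 0.267 CPM (0.0868 to 0.624). The later shares were 10.1% (5.32 to 17.0) and 2.27% (0.0575 to 12.0), far below the pre-pubertal one. The log2 ratio of pre-puberty was 4.07 over puberty and 7.59 over the adult. Without the cells with non-epithelial markers the pubertal level was 0.979 CPM, and the puberty over adult ratio, 3.52 with all cells, was 0.24.

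Zeb1 on chromosome 18, the paralog of Zeb2, was far less abundant. Its share was 27.6% (19.7 to 36.7) at pre-puberty, against 6.72% (2.95 to 12.8) for pubertal and 4.55% (0.555 to 15.5) for adult cells, and its levels were 49.9, 16.4 and 3.58 CPM. A single pre-pubertal cell held 34.5% of its reads, and the level was 33.1 CPM without it. The log2 ratio of pre-puberty was 1.36 over puberty and 2.68 over the adult. Of the 8 pubertal cells with Zeb1, 7 had non-epithelial markers and held 91.5% of its reads, and without those cells Zeb1 was at 1.60 CPM and the ratio of puberty over adult turned from 1.32 to -0.22.

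Snai2 (chr16:14705852-14709395), the gene of Slug, differed from the Zeb genes in that its level was not highest at pre-puberty. Its level was 44.3 CPM in pre-pubertal, 65.8 in pubertal and 14.9 in adult cells, with the median cell at 0 at each stage and highest cells of 892, 1329 and 527 CPM. The share of thinned cells with Snai2 was 15.5% (9.46 to 23.4), 21.0% (14.1 to 29.4) and 6.82% (1.43 to 18.7), and these intervals overlapped at all 3 stages. A single pre-pubertal cell held 43.6% of that stage's reads, and the level was 25.5 CPM without it. The log2 ratio of pre-puberty over puberty was -0.52. Ratios against the adult rest on 1 adult cell, which held 95.3% of the adult reads and without which the adult level was 0.714 CPM. Only 11.1% of the pubertal Snai2 reads lay in cells with non-epithelial markers, against 98.5% for Zeb2.

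The remaining factors were rare. Snai1 (chr2:167538195-167542814), the gene of Snail, had 1 read in the pre-pubertal cells, 1.43 CPM in the pubertal and 21.2 CPM in the adult cells, of which 1 cell with endothelial and pericyte markers held 80.8% of its 396 reads. The adult level was 862 times the pre-pubertal one with a counting interval of 153.8 to 34138, and after 5 CPM was added the log2 ratio of pre-puberty over adult was -2.38, against -0.87 without the top cell of each stage and -0.91 without the cells with non-epithelial markers. It was seen in 4 pubertal and 2 adult cells, and 89.8% of the pubertal reads lay in 1 cell without non-epithelial markers. Twist1 (chr12:33957671-33959831), a basic helix-loop-helix factor, was detected in 2 thinned pubertal cells, at a stage level of 0.920 CPM, and its relative Twist2 (chr1:91801461-91848034) in 1, at 1.21 CPM. Neither was in a thinned pre-pubertal or adult cell, and the exact intervals of these shares run from 0 to 3.13% and from 0 to 8.04%. In limits of 3 cells these are 2.59% and 6.82%. All 3 of these pubertal cells had non-epithelial markers.

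The effector Cdh2 on chromosome 18, N-cadherin, resembled Zeb1 at pre-puberty. Its share was 31.9% (23.6 to 41.2) at pre-puberty and 5.88% (2.40 to 11.7) in pubertal cells. It was in 0 of 44 adult cells, with an exact interval of 0 to 8.04% and a limit of 3 cells at 6.82%. Its levels were 45.1 and 2.04 CPM before adulthood, and there was no adult read. Against a limit of 3 reads over all adult cells the pre-pubertal level was 281-fold and the pubertal level 12.7-fold higher. That limit counts reads only, not how many cells hold them. The pubertal and adult share intervals overlapped, and with 5 CPM added the log2 ratio of puberty over adult was 0.49, under 10 CPM at both stages. Fn1 (chr1:71585473-71653280), encoding fibronectin of the extracellular matrix, was unlike the other effectors: it had 283, 350 and 150 CPM with shares of 19.0%, 20.2% and 9.09%, with a pre-puberty over puberty log2 ratio of -0.30. One pre-pubertal cell held 60.8% of its reads, and the level was 112 CPM without it. Its later reads lay almost wholly in few cells, since the cells with non-epithelial markers held 96.4% of them at puberty and 99.8% in the adult. Without those cells Fn1 was at 39.6, 14.4 and 0.345 CPM, and the ratio of pre-puberty over puberty was 1.20.

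**Figure D2:**
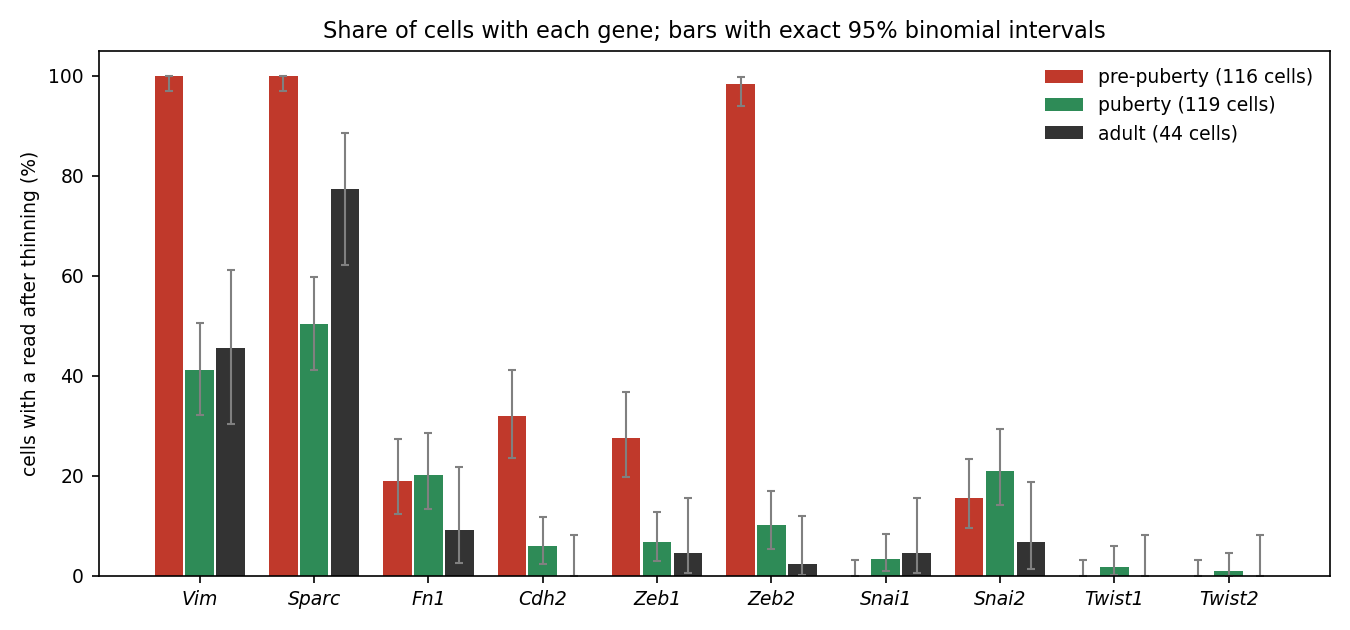
Share of cells with each gene after thinning to 100000 reads, in percent, for 116 pre-pubertal, 119 pubertal and 44 adult cells. Bars start at 0 and whiskers are exact 95% binomial intervals. Zeb2 goes from 98.3% at pre-puberty to 10.1% and 2.27%, while Snai2 stays between 6.82% and 21.0% with overlapping whiskers.

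The pre-pubertal levels were also read in the 8 kept cells with 6 to 11 Schwann markers. Vim was present in all 8 at 1097 to 4364 CPM and Sparc at 3616 to 17209 CPM, and Zeb2 was detected in 6 of 8 with a median of 214 CPM, against 670 CPM in the 108 cells with at least 12. Snai2 was detected in 4 of the 8 and in 14 of the 108 cells. Vim and Sparc were thus present at high levels in these cells too. With 6 to 11 Schwann markers they still lay above the pubertal and adult medians of 2 and 2.5, so they do not stand for cells without such markers. Of the 8 cells 3 had 8 to 15 fibroblast markers, among them the cells with the lowest Vim and the highest Sparc, and their part in these values was not tested.

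Co-detection with Vim was asked at puberty, where 49 of 119 thinned cells had Vim and 70 did not. Every cell with Zeb1 (8 of 8), Zeb2 (12 of 12), Snai1 (4 of 4), Twist1 (2 of 2) or Twist2 (1 of 1) also had Vim, as did 22 of 25 cells with Snai2 and 6 of 7 with Cdh2. Shares were higher with Vim by intervals that did not overlap for 5 of the other 9 genes: Zeb1, Zeb2, Snai2, Sparc and Fn1. Among 11096 genes found in at least 4 pubertal cells, 4.05% met the same condition. No member was less frequent with Vim by intervals apart, against 0.928% of those genes. Twist1 and Twist2 were in fewer than 4 cells, and the background was not matched for how often a gene was detected. Sparc was detected in 93.9% of cells with Vim (83.1 to 98.7) and in 20.0% of cells without (11.4 to 31.3). Snai2 was detected in 44.9% (30.7 to 59.8) and in 4.29% (0.893 to 12.0). For Zeb2 the shares were 24.5% (13.3 to 38.9) and 0%, an exact interval of 0 to 5.13.

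The cells with non-epithelial markers all had Vim, and 16 of the 49 pubertal cells with Vim were of this kind. Without them the intervals stayed apart for Snai2 (15 of 33 cells with Vim against 3 of 70 without) and Sparc (30 of 33 against 14 of 70), but overlapped for Zeb1 (1 of 33 against 0 of 70), Zeb2 (3 of 33 against 0 of 70) and Fn1 (9 of 33 against 5 of 70). With all kept cells, those with several factors were few: 9 of 119 pubertal cells had 2 or more of the 6 factors. Zeb1 and Zeb2 shared 4 cells where 0.807 would be expected if detection were independent, and all 4 had non-epithelial markers. Snai2 and Zeb2 shared 5 cells with 2.52 expected.

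**Figure D3:**
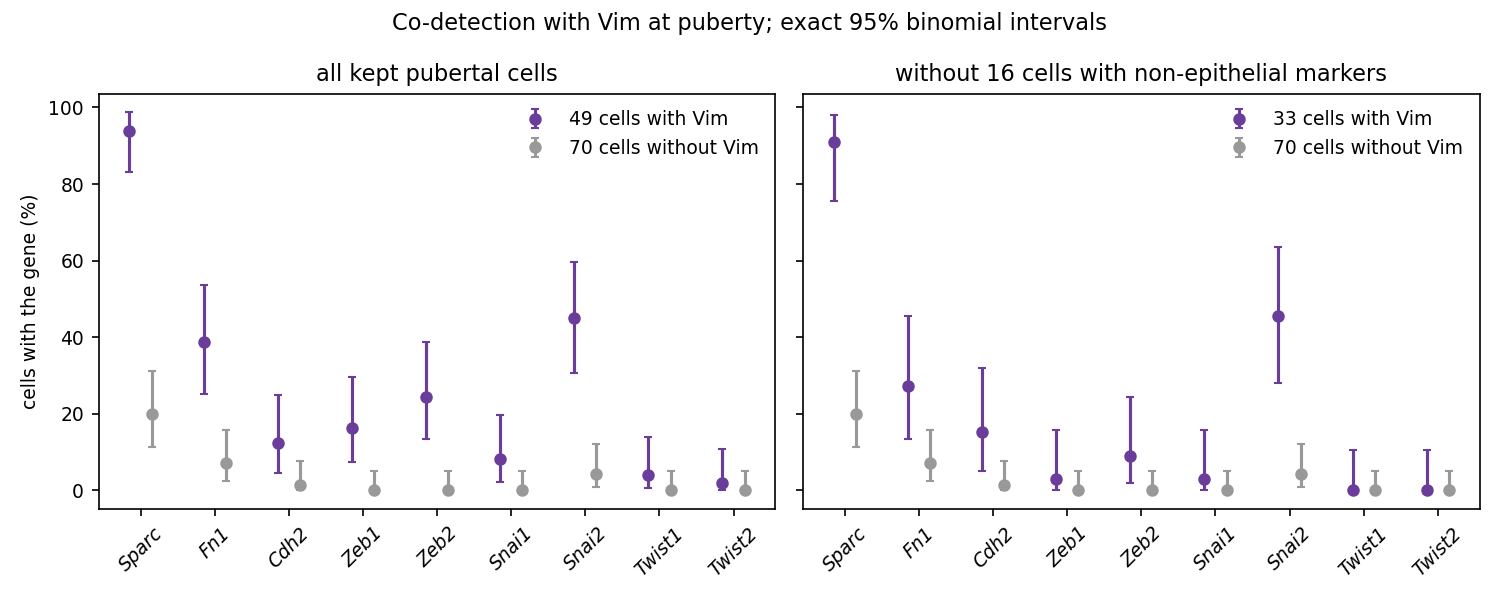
Share of pubertal cells with each gene among cells with Vim (purple) and without Vim (grey), in percent with exact 95% binomial intervals, for all kept cells (left; 49 and 70 cells) and without the 16 cells with non-epithelial markers (right; 33 and 70 cells). Snai2 and Sparc stay apart in both panels, whereas the Zeb1 and Zeb2 points drop toward 0 on the right.

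In the adult, 20 of 44 thinned cells had Vim, and only Sparc was apart, in 20 of 20 cells with Vim (83.2 to 100%) and 14 of 24 without (58.3%, 36.6 to 77.9). The background was 0.643% of 7159 genes, with 0.0838% apart in the other direction and no member among them, and with unthinned counts no member was apart. Snai2 was in 2 of 20 and 1 of 24 cells. At pre-puberty every cell had Vim, so co-detection carried no information there, and levels were compared instead. The median Vim level was 1849 CPM in the 18 cells with Snai2 and 2786 CPM in the 98 without, and 2574 CPM in the 114 cells with Zeb2 and 1797 CPM in the 2 without. Between Vim and Zeb2 levels the Spearman correlation over 116 cells was 0.03, and between Zeb2 and Sparc it was -0.00. Among pre-pubertal cells Vim was thus lower in those with Snai2, and its level did not track that of Zeb2.

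To ask which factor went with basal cells, cells were split by 12 basal markers (such as Krt5, Krt14, Acta2 and Trp63) and 12 luminal markers (such as Krt8, Krt18, Areg and Prlr), none of them a member. A cell with at least 3 more basal than luminal markers was called basal-marked, one with at least 3 more luminal markers luminal-marked, and the rest between. At puberty this gave 21 basal-marked, 25 between and 73 luminal-marked cells, with 17 cells within 1 marker of a limit, and in the adult 20, 9 and 15. Basal-marked cells were 17.6% of the pubertal and 45.5% of the adult cells. The stage shares and levels above were not adjusted for this difference in mix. Of the pre-pubertal cells 50 were basal-marked, 64 between and 2 luminal-marked, so basal-marked cells could be set only against between cells there. At that stage 39 cells lay within 1 marker of a limit. The median pre-pubertal basal-marked cell had 4 basal and 15.5 Schwann markers, against 10 and 3 at puberty. The label therefore names unlike cells at pre-puberty and at puberty.

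Snai2, the factor detected in the most pubertal cells, was found mainly outside luminal-marked cells, like the rarer Snai1 and Zeb2. At puberty it was detected in 10 of 21 basal-marked cells (47.6%, 25.7 to 70.2), in 10 of 25 between cells (40.0%, 21.1 to 61.3) and in 5 of 73 luminal-marked cells (6.85%, 2.26 to 15.3). Summed over cells the levels were 171, 166 and 1.24 CPM, and the median level in the cells with Snai2 was 116, 118 and 16.1 CPM, with a highest luminal-marked cell of 18.6 CPM. The luminal-marked cells were therefore low as well as few. Without the cells with non-epithelial markers Snai2 was in 6 of 16, 9 of 20 and 3 of 67 cells, and the basal and luminal intervals (15.2 to 64.6% and 0.933 to 12.5%) stayed apart. Pubertal Snai2 was thus not found in basal-marked cells alone, since the shares of basal-marked and between cells overlapped. At pre-puberty, by contrast, Snai2 was in 14 of 50 basal-marked cells (28.0%, 16.2 to 42.5) and 4 of 64 between cells (6.25%, 1.73 to 15.2), with intervals apart and summed levels of 94.0 and 6.95 CPM. Without the cells with non-epithelial markers it was in 9 of 33 (13.3 to 45.5%) and 2 of 51 (0.478 to 13.5%), and the intervals overlapped slightly. The other members had overlapping intervals between these pre-pubertal classes.

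The lineage markers that made this split were also read singly, as a description. Of the 25 pubertal cells with Snai2, 15 had Krt5, 14 had Krt14 and 11 had Trp63, against 18, 26 and 13 of the 94 cells without, with overlapping intervals for Krt14 (34.9 to 75.6% and 18.9 to 37.8%). At the same time 21 of the 25 had Krt8 and 23 had Epcam, against 89 and 92 of the 94 without, with overlapping intervals. Most cells with Snai2 thus carried these transcripts, as did most cells without it. At pre-puberty, where Epcam was rare, Krt5 was found in 10 of 18 cells with Snai2 (55.6%, 30.8 to 78.5) and in 14 of 98 without (14.3%, 8.04 to 22.8). Krt14 was in 9 of the 18 and 20 of the 98 cells and Trp63 in 5 and 14, with overlapping intervals.

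The condition of no luminal-marked cell was met by other members. Cdh2 was in 5 of 21 basal-marked, 2 of 25 between and 0 of 73 luminal-marked pubertal cells, and Snai1 in 2, 2 and 0. The exact interval of 0 of 73 cells runs from 0 to 4.93%. Of 11073 genes in at least 4 pubertal cells, 0.867% were found in at least 1 basal-marked and no luminal-marked cell. Cdh2 without the cells with non-epithelial markers was in 4 of 16, 2 of 20 and 0 of 67 cells, with intervals apart, at 7.81, 3.61 and 0.0262 CPM. The Snai1 cells were too few to place, since 3 of the 4 had non-epithelial markers. With all kept cells, no factor was in basal-marked pubertal cells alone: Snai2 was also in between and in 5 luminal-marked cells, and Snai1 also in between cells.

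Zeb2 was in 7 of 21 basal-marked, 2 of 25 between and 3 of 73 luminal-marked pubertal cells (33.3%, 14.6 to 57.0, against 4.11%, 0.856 to 11.5). Without the cells with non-epithelial markers it was in 3, 0 and 0 cells, at 1.95, 17.1 and 33.9 CPM in those cells, and the intervals overlapped. Zeb1 was in 2, 3 and 3 cells, Twist1 in 0, 0 and 2, and Twist2 in 0, 0 and 1. The luminal-marked cells with Twist1 or Twist2 had 11 and 12 of 16 fibroblast markers or 6 of 10 endothelial markers.

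Among the effectors, Vim was in 20 of 21 basal-marked, 18 of 25 between and 11 of 73 luminal-marked pubertal cells (95.2%, 72.0% and 15.1%), and without the cells with non-epithelial markers in 15 of 16, 13 of 20 and 5 of 67. Sparc was in 20, 23 and 17 cells (95.2%, 92.0% and 23.3%). Fn1 was in 8, 7 and 9 cells and its intervals overlapped, but without the cells with non-epithelial markers it was in 6 of 16 basal-marked and 4 of 67 luminal-marked cells, with intervals apart. In all, 5 of the 10 genes (Vim, Sparc, Snai2, Zeb2 and Cdh2) were more frequent in basal-marked than in luminal-marked cells by intervals apart, against 3.17% of 11073 genes in at least 4 pubertal cells. In the adult 2 were, against 0.897%: Vim in 14 of 20 basal-marked, 5 of 9 between and 1 of 15 luminal-marked cells, and Sparc in 19, 8 and 7. The adult luminal-marked cell with Vim had 12 fibroblast markers. Neither background was matched for how often a gene was detected, and Twist1 and Twist2 were in fewer than 4 pubertal cells. Snai2 was in 2, 1 and 0 adult cells, Snai1 in 1, 1 and 0 and Zeb2 in 1, 0 and 0, which are too few to read against the 5.28% of genes in at least 4 adult cells that had no luminal-marked and at least 1 basal-marked cell. The adult cells thus showed the pubertal difference for Vim and Sparc and were too few with a factor to show one.

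**Figure D4:**
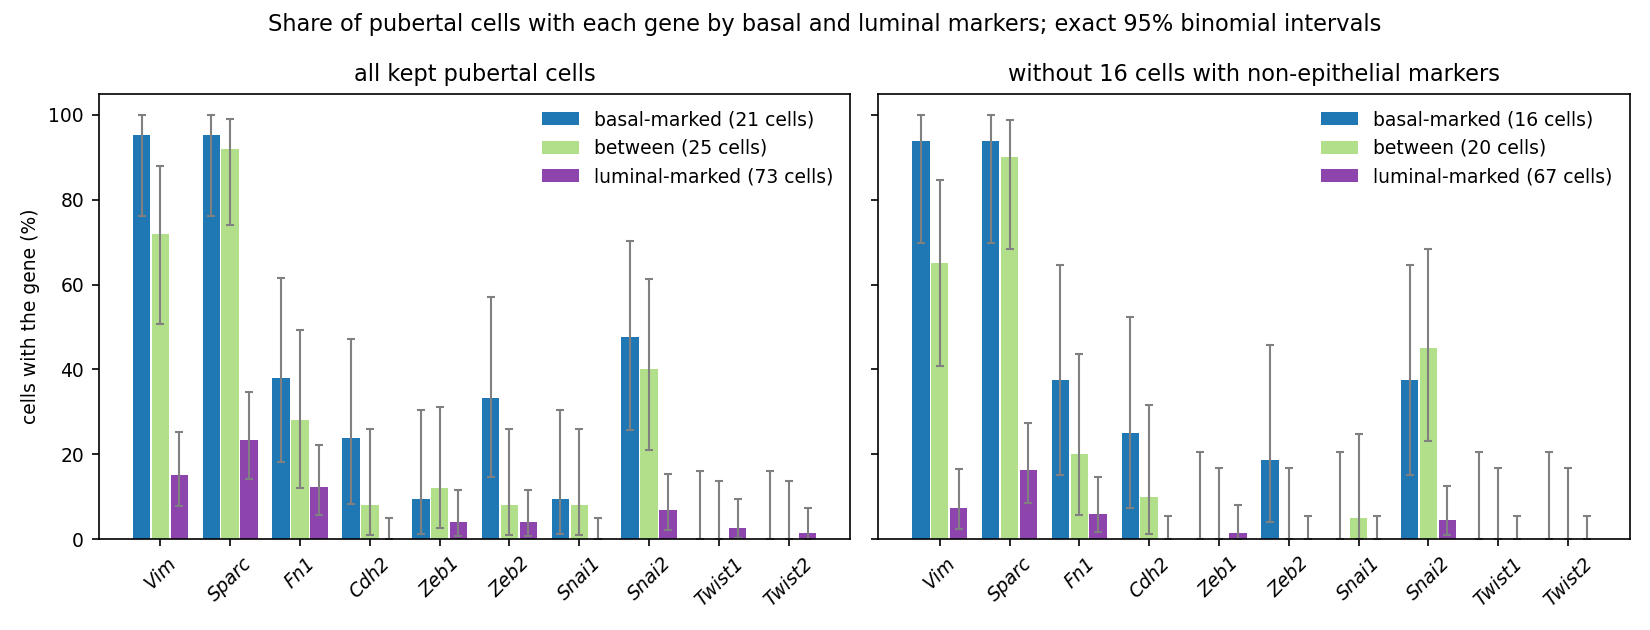
Share of pubertal cells with each gene among basal-marked (blue), between (green) and luminal-marked (purple) cells, in percent with exact 95% binomial intervals, for all kept cells (left) and without the 16 cells with non-epithelial markers (right). Snai2 is at 47.6%, 40.0% and 6.85% on the left, and Cdh2 and Snai1 have no luminal-marked cell in either panel.

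The genes whose detection over the 119 pubertal cells was most like that of the members were ranked by the phi coefficient among 7500 genes in at least 10% of cells. Likest to Vim were Tgfbr3 (0.78, a co-receptor for TGF-beta), Sparc (0.73), Col4a1 (0.65), Pdpn (0.64) and Col14a1 (0.64). For Snai2 they were Adam23 (0.53), Col17a1 (0.49, a hemidesmosome collagen of basal epithelium), Vim (0.49), Pdpn (0.48) and Col18a1 (0.47). For Zeb2 they were Fbln5 (0.63), Rarres2 (0.57), Col3a1 (0.56, a fibrillar collagen and one of the fibroblast markers), Hspa1a (0.55, with a near-identical copy and so uncertain) and Cd302 (0.54). The lists of Snai2 and Zeb2 had no gene in common. With so few genes named out of 7500, this cannot tell the factors apart, and no expected overlap was worked out. Of the 12 pubertal cells with Zeb2, 9 had non-epithelial markers.

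Of the 48 other genes of the pathway, those on the epithelial side had the most calls in 1 direction, against the background of 21.4% of genes higher and 24.0% lower at pre-puberty than at puberty. These lists were also chosen with earlier results of these data known, so the counts are a description. At pre-puberty against puberty, 14 of the 15 that reached 10 CPM were more than 2-fold lower and 0 higher, with a median log2 ratio of -2.94. Cdh1, the E-cadherin gene, was at 7.47 and 72.1 CPM, Epcam at 16.4 and 940 CPM, the tight junction claudin Cldn4 at 1.20 and 240 CPM, Cldn3 at 1.03 and 116 CPM, Cldn7 at 0.123 and 126 CPM, the desmosome gene Dsp at 88.7 and 473 CPM and Rab25 at 4.10 and 111 CPM. Of 11 other mesenchymal effectors, 7 were higher and 1 lower (Fap, 2.26 and 25.7 CPM) at pre-puberty. Tnc, encoding the matrix protein tenascin C, had 378 CPM at pre-puberty and 0.146 at puberty, Lgals1 (galectin 1) 985 and 118, S100a4 182 and 14.3, Itgb3 148.2 and 38.5, Ctgf 108 and 13.9 and the hyaluronan receptor Cd44 894 and 385 CPM. The integrin gene Itgav, at 473 and 278 CPM, and Mmp14, at 103.3 and 66.7 CPM, were within 2-fold.

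Of 10 inducers and signal genes 4 were higher and 0 lower at pre-puberty than at puberty, with the same background of 21.4% and 24.0%. The 4 were Ets1 at 244 and 78.9 CPM, Smad3 at 68.9 and 16.4, the ligand gene Tgfb2 at 50.0 and 17.5 and Lef1 at 11.2 and 0.0292 CPM. Smad2, Smad4, Tgfbr2 and Ilk were within 2-fold. Of 5 other factors 0 were higher and 2 lower: Sox9 had 56.6 CPM at pre-puberty and 1590 at puberty, and Prrx1, at 6.73 and 24.3 CPM, had 46.4% of its pubertal reads in the same cell with fibroblast markers that held most Zeb2 reads. Tcf4, at 118.0 and 226 CPM, and Tcf12, at 243 and 192 CPM, were within 2-fold. Against the adult the counts at pre-puberty were 0 higher and 10 lower of 11 on the epithelial side, 6 and 3 of 12 effectors, 5 and 0 of 10 inducers, and 1 and 3 of 4 factors. The background there was 31.7% higher and 28.9% lower, so the effectors lay near it for lower levels. At puberty against the adult, 6 were higher and 0 lower of 15 on the epithelial side, 3 and 5 of 11 effectors, 2 and 1 of 9 inducers, and 1 and 0 of 5 factors, with a background of 28.4% higher and 20.6% lower. Among the effectors lower at puberty than in the adult were Ctgf at 13.9 against 329 CPM, Lgals1 at 118 against 319 CPM and Mmp14, a membrane-bound metalloproteinase, at 66.7 against 160 CPM.

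**Figure D5:**
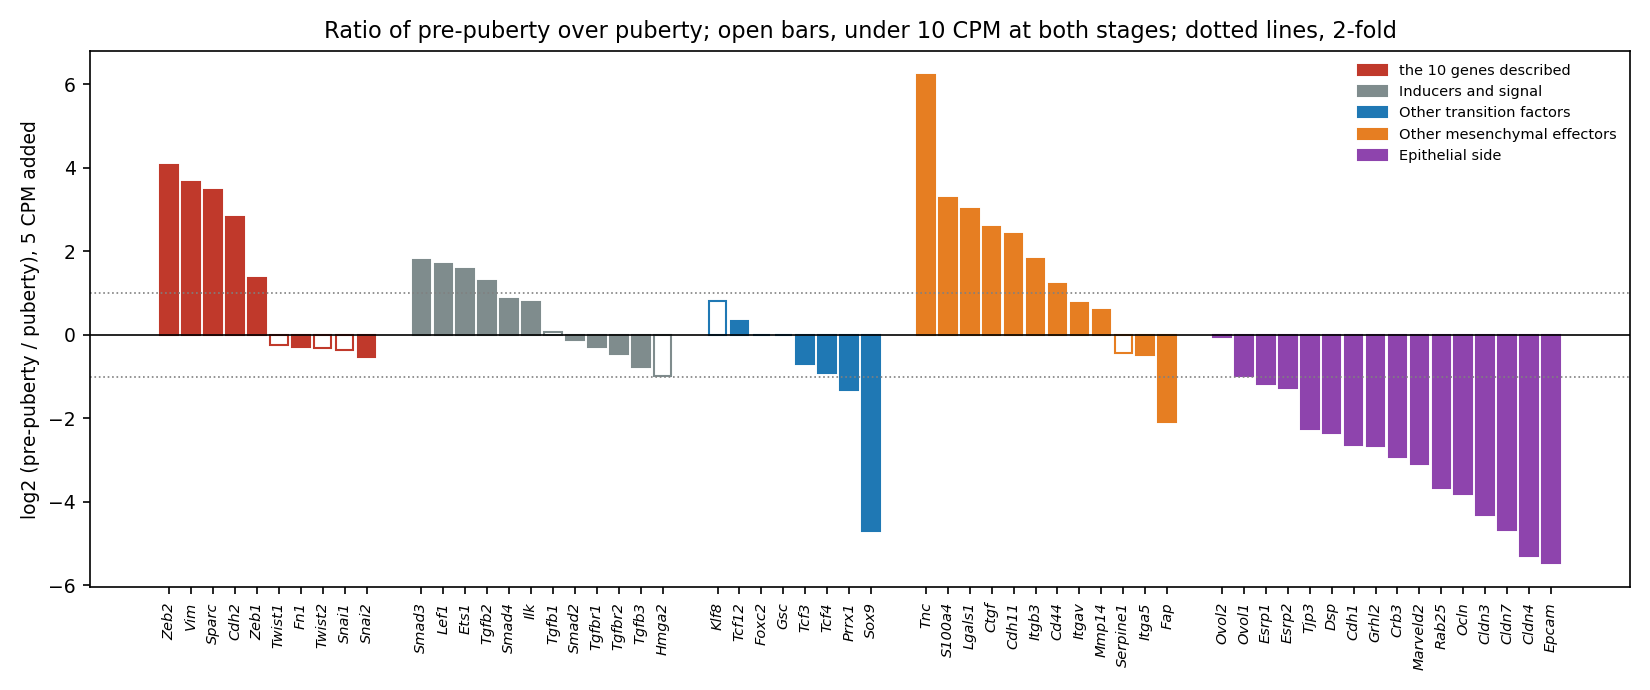
Log2 ratio of pre-puberty over puberty, with 5 CPM added to both levels, for the 10 genes (red) and the 48 other genes of the pathway in 4 groups. Bars start at 0, open bars are genes under 10 CPM at both stages and dotted lines mark 2-fold. Zeb2, Vim and Sparc reach 4.07, 3.66 and 3.46, and the epithelial genes end at -5.47 with Epcam.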

How the data were processed

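The deposited values were raw counts of read pairs per Entrez gene for each of 346 cells. Per the labels and methods, the authors mapped read pairs to mm10 with Subread 1.4.6 and assigned them to RefSeq genes by featureCounts with Rsubread's inbuilt annotation, with no molecular identifiers, so amplified copies were counted separately. The deposited gene lengths in bases served only for RPKM. A table of the whole series held the same counts and was not used.

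Of 27179 genes, 25275 matched RefSeq (GRCm38.p6). The 1904 without a match, 15 mitochondrial and 100 ribosomal protein genes were removed as in the study, which left 25160. Cells were kept at 100000 reads and 1500 genes or more. The kept cells of a stage were summed to CPM with exact Poisson intervals, and shares of cells were taken after thinning to 100000 reads (seed 1) with Clopper-Pearson intervals at 95%. Limits for 0 cells or reads assume 3 counts. Intervals and limits cover counting error only, not differences between mice, sorts or chips. No doublet caller was run. The authors inspected the captured cells, but whether cells with mixed markers held 2 cells was not tested here. No 2 kept cells had identical counts. The labels name no mouse, so no p-value is given. Members, marker lists and pathway genes were chosen with earlier results of these data known. All 10 members are named, pathway genes are named at 100 CPM or more at a stage (Cdh1, Fap, Prrx1, Smad3, Tgfb2 and Lef1 were named after their values were seen) and the 5 likest genes are named for Vim, Snai2 and Zeb2. Ratios and thinning were tested on simulated cells. Alternatives were other constants, scalings (edgeR 4.0.16 TMM, median of ratios), filters, detection limits and class rules. Python 3.11.15, numpy 2.4.6, scipy 1.17.1 and R 4.3.3 were used.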

Additional observations from a re-analysis of the deposited data

Results flagged for a closer look

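The cells below the coverage filter, which entered only an alternative without that filter, also held Vim and Sparc above the limit that a count of 0 allows. In the 28 pre-pubertal cells under the filter Vim was at 1963 CPM (95% Poisson interval 1845 to 2085) and Sparc at 4814 CPM, and Zeb2 was in 25 of them at 943 CPM. In the 17 pubertal cells under it Vim was at 561 CPM and Sparc at 435 CPM, with 75.5% of the Vim and 78.8% of the Sparc reads in 1 cell. In the 22 adult cells Vim was at 589 CPM, 95.7% of it in 1 cell, and Sparc at 683 CPM.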

How the results depend on the processing

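No paired analysis was possible because the labels name no mouse and cell numbers are only names. Of 17 stage ratios past 2-fold, 169 of 170 values under the alternatives kept their direction and 160 stayed past 2-fold. The exception in direction was Zeb1 for puberty over adult, -0.22 without the cells with non-epithelial markers. The number of members more than 2-fold higher at puberty than in the adult, 4, became 2 without those cells and 2 with equal weight for each cell. Snai1 lost its 2-fold call against the adult but kept its direction (-0.87 for pre-puberty and -0.83 for puberty on the log2 scale) without the top cell of each stage, and Snai2 of pre-puberty over adult was 0.86 without pre-pubertal cells 1 to 37. Most kept cells with these numbers had more reads than any later pre-pubertal cell, so they weigh more in the summed levels. The cell with 43.6% of the pre-pubertal Snai2 reads was among them. Whether they form a separate batch was not tested.

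The share of pubertal cells with Vim, 41.2%, was 32.0% without the cells with non-epithelial markers and 26.1% above 40 RPKM. Members apart with Vim at puberty, 5, became 2 without those cells and 2 above 40 RPKM, and members apart between basal-marked and luminal-marked cells, 5, became 3 above 40 RPKM and 3 by keratins only. The Snai2 difference between basal-marked and luminal-marked pubertal cells, 40.8 percentage points, ranged from 26.9 to 49.8. Median-of-ratios scaling moved pubertal levels by -0.18 on the log2 scale. The causes were not tested. Single adult cells set several factor levels, and 44 adult cells limit every adult share.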
